A study of Mus musculus with 2 samples.

Results

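ILC1-like cells of the mouse adrenal gland were taken from single-cell RNA sequencing of sorted CD45+ cells, the leukocytes of the tissue. A natural killer (NK) gate was drawn on unique molecular identifiers (UMIs, counted RNA molecules): at least 2 UMIs of Ncr1, Klre1 and Klrb1c together, at most 1 of Cd3d, Cd3e and Cd3g, at most 2 of C1qa, C1qb and C1qc, and 0 of Cd79a, among barcodes with at least 200 genes and at most 15% mitochondrial UMIs. ILC1-like cells were chosen by measured values: a cell of this gate was called ILC1-like if Itga1, Cd160 and Xcl1 together had at least 2 UMIs and more than Itga2, Eomes, Klra4 and Klra8 together. The rule found 518 cells, 364 in the female and 154 in the male library, of 951 gate cells, 6319 barcodes that passed the filters and 6648 barcodes in all. They were compared with the 383 gate cells (274 female, 109 male) in which the second sum led, called conventional NK cells here. A further 38 female and 12 male gate cells belonged to neither set: 28 and 12 had tied sums, and 10 female cells had a first sum of 1 and a second of 0.

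The adrenal glands came from untreated C57BL/6 mice aged 7 weeks, and live cells stained for CD45 were sorted, after removal of the surrounding fat, without selection for NK cells. There was 1 droplet library from females and 1 from males, and the number of animals in each was not given in the sources used here. No difference could therefore be set against the spread between animals, no test was run and no p-value is given. Intervals are 95% intervals that cover counting error only.

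Type 1 innate lymphoid cells (ILC1) and NK cells are lymphocytes without rearranged antigen receptors. Both carry the activating receptor NKp46, encoded by Ncr1, and in C57BL/6 mice NK1.1, encoded by Klrb1c. Conventional NK cells circulate, depend on the transcription factor Eomes and kill target cells with perforin and granzymes, whereas ILC1 and tissue-resident NK cells stay in organs such as the liver and salivary gland and bear the collagen-binding integrin CD49a, encoded by Itga1.

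The upstream sequences of 4 genes that were high in ILC1-like cells are shown so that genes that were high together can be read side by side. Xcl1 and Cd160 belong to the rule, and Cxcr6 and Tmem176b were among the highest genes outside it. Each sequence is the 250 bases before the transcription start in RefSeq, on build GRCm38.p6, written 5′ to 3′ on the strand of the gene. The positions are chr1:164935523-164935772 (minus strand) for Xcl1, chr3:96829352-96829601 (minus) for Cd160, chr9:123806227-123806476 (plus) for Cxcr6 and chr6:48841375-48841624 (minus) for Tmem176b. Capitals mark matches to the Runx motif TGTGGTT or the KLF motif GGGTGTGG on either strand.
Xcl1: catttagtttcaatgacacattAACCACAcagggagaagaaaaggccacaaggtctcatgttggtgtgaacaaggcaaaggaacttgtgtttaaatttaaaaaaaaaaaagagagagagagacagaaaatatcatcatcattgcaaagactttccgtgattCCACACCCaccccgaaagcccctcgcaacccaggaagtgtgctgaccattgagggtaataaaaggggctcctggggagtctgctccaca
Cd160: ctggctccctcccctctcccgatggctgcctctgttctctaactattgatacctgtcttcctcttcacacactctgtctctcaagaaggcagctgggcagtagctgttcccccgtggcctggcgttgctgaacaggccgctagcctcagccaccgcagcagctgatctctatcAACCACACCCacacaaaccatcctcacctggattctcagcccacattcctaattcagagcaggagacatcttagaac
Cxcr6: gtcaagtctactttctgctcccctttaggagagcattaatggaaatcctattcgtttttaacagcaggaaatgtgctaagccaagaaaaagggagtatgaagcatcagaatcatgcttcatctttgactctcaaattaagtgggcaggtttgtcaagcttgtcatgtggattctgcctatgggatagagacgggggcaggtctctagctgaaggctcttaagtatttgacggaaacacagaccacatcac
Tmem176b: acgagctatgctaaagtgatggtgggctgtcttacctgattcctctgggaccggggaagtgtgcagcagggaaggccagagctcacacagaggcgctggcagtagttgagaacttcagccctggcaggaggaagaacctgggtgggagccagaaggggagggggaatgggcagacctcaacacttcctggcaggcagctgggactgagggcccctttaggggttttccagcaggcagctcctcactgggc
The motifs overlap in the Cd160 sequence, where 1 run of capitals holds both, and stand apart in Xcl1. Of 27025 genes with a sequence in the table, 5.08% held the Runx motif, 3.68% the KLF motif, 7.82% the AP-1 motif TGANTCA and 1.30% the T-box motif AGGTGTGA within the same 250 bases. None of the 4 motifs was found in the Cxcr6 and Tmem176b windows. Outside the rule, 22 of the 32 genes that were higher in ILC1-like cells in both libraries had a sequence, and the Runx, KLF, AP-1 and T-box motifs were present in 1, 1, 1 and 0 of them. Of the 32 lower genes, 25 had a sequence, and the motifs were present in 2, 3, 5 and 0 of them. These letters describe the windows and do not mark sites of binding.

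ILC1-like cells made up 53.8% of the gate in the female library (364 of 676 cells, 95% Clopper-Pearson interval 50 to 57.7) and 56.0% in the male library (154 of 275, 49.9 to 61.96). The female share was 2.15 percentage points below the male share, with a Newcombe interval of the signed difference from -9.02 to 4.83, so counting error alone spans both directions. Among all barcodes that passed the filters the cells were 9.54% (8.62 to 10.5) in the female and 6.16% (5.25 to 7.17) in the male library, a difference of 3.38 points (2.03 to 4.69). The whole NK gate followed the same order, with 17.7% of female and 11.0% of male barcodes. Drawing 1000 UMIs from each cell before the rule was applied put the ILC1-like share at 37.0% of the female and 37.6% of the male gate. ILC1-like cells were deeper (median 4595.5 UMIs in females, 5387 in males) than conventional NK cells (3490 and 4047). The libraries shared 2 barcode sequences, 0 of them among ILC1-like cells.

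The genes of the rule are given as a description, since they chose the cells. Xcl1, a chemokine that attracts cross-presenting dendritic cells, carried most of the first sum: it had a UMI in 98.4% of female and 100% of male ILC1-like cells, with a median of 8 and 11 UMIs. Cd160, a receptor of the immunoglobulin superfamily, was detected in 64.8% and 66.9%, and Itga1 in 43.4% and 42.2%. Most of the cells thus had no Itga1 UMI and entered through Xcl1 and Cd160. On the other side, Klra8, which encodes the activating receptor Ly49H, was seen in 21.4% of female and 11.7% of male ILC1-like cells, Eomes in 23.1% and 15.6%, Itga2 in 17.6% and 23.4% and Klra4 in 14.6% and 9.09%. The second sum was 0 in 198 female and 95 male ILC1-like cells. The plot of both sums shows this mass on the horizontal axis.

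**Figure D1:**
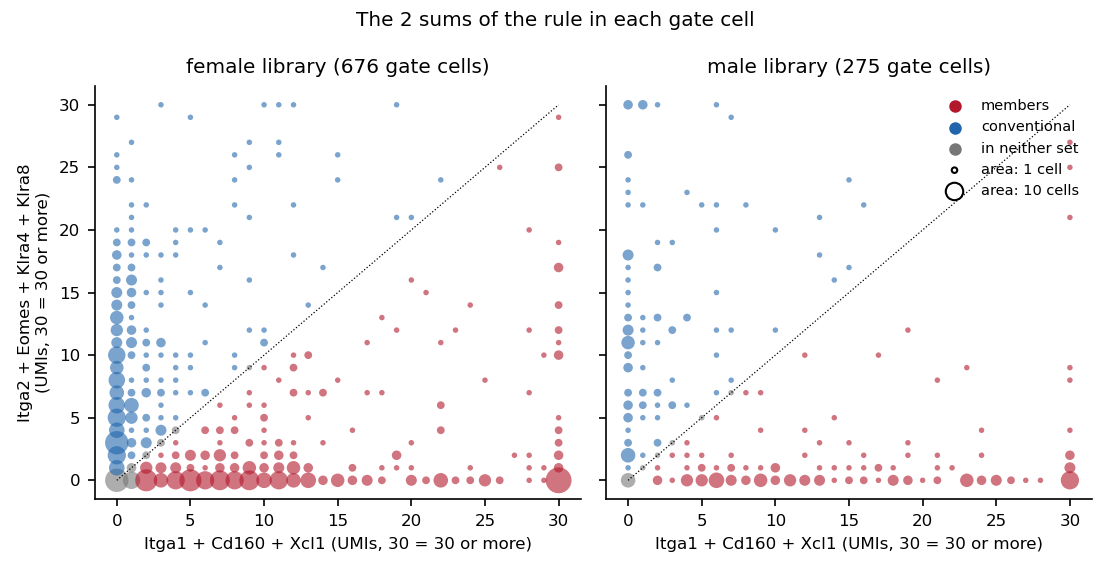
Each point is a combination of the first sum (Itga1, Cd160 and Xcl1, horizontal) and the second sum (Itga2, Eomes, Klra4 and Klra8, vertical) in UMIs per gate cell, its area is the number of cells, and sums above 30 are drawn at 30. ILC1-like cells (red) lie below the dotted line of equal sums and conventional NK cells (blue) above it, with 198 female and 95 male ILC1-like cells at a second sum of 0.

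Cells next to the border were few. Those that led by 1 UMI numbered 10 in the female and 5 in the male library. In them Cxcr6, a chemokine receptor of tissue-resident lymphocytes, had 0 and 1 UMI, and Klf2, a transcription factor of circulating lymphocytes, stood at 734 and 859 CPM (UMI counts of a cell set scaled to the same total for every set). Tied cells, just outside, numbered 28 and 12 and held 0 and 3 UMIs of Cxcr6 and 858 and 603 CPM of Klf2. Conventional NK cells that led by 1 UMI (26 and 6) held 2 and 0 UMIs of Cxcr6 and 605 and 282 CPM of Klf2.

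For the label, 5 markers had been named: Itga1, Xcl1, Cd160, Gzmb and Klrc1. A gene was called higher or lower where log2 of (CPM + 10) differed by 2-fold or more between ILC1-like and conventional NK cells in the female and again in the male library. By this measure 35 of 3979 genes (0.88%) were higher and 36 (0.905%) lower, 3 and 4 of them being genes of the rule. In the female library alone 48 genes (1.21%) were 2-fold higher and 57 (1.43%) lower, and in the male library alone 73 (1.83%) and 67 (1.68%). Only Klrc1 and Gzmb among the markers lie outside the rule. Klrc1, which encodes the inhibitory receptor NKG2A, was called higher: 545 against 217 CPM in the female library, a ratio of 2.52 (2.18 to 2.91), and 728 against 343 CPM in the male library, a ratio of 2.13 (1.78 to 2.55). Gzmb, which encodes granzyme B, was not: it stood at 980 against 959 CPM in the female library, a ratio of 1.02 (0.947 to 1.10), and at 726 against 875 CPM in the male library, a ratio of 0.83 (0.731 to 0.943). When every cell was thinned to 1000 UMIs, 30.9% of female and 29.2% of male ILC1-like cells had a Gzmb UMI, against 49.3% and 41.7% of conventional NK cells. In B cells, which should lack it, the thinned share was 0.957% and 0.995%. Unthinned, the shares were 50.8% and 48.7% of ILC1-like against 71.5% and 67.9% of conventional NK cells. Among ILC1-like cells, 5 cells held 27.7% of the female and 34.8% of the male UMIs. Of the 2 markers that the rule had not used, the label thus held for 1.

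Lineage genes outside the gate were present in both sets. Tbx21, which encodes the transcription factor T-bet, stood at 99.7 and 110 CPM in female and male ILC1-like cells and at 127 and 150 CPM in conventional NK cells. Nkg7, a protein of cytotoxic granules, reached 2303 and 2485 CPM against 3541 and 3796 CPM, and Il2rb, a receptor chain for interleukin-2 and interleukin-15, 931 and 1294 CPM against 874 and 921 CPM. None of these 3 passed 2-fold in either library. A list of 13 markers of the other helper-like innate lymphoid cells summed to 145 and 207 CPM in ILC1-like cells, against 133 and 183 CPM in conventional NK cells and 212 and 205 CPM in T cells. In ILC1-like cells 8 of the 13 had no UMI in the female and 7 in the male library, the effector and receptor genes Il5, Il13, Areg, Il22, Il17a and Il23r among them in both. Most of the sum came from Gata3, a transcription factor that T cells also use, at 77.8 and 107 CPM in ILC1-like against 66.5 and 97.2 CPM in conventional NK cells, and from Lmo4, a transcriptional cofactor, at 62.4 and 81.7 against 63.8 and 84.0 CPM.

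On the scale of log2(CPM + 10), Il7r had the largest difference among the genes outside the rule in the library nearer to 0. The interleukin-7 receptor that it encodes sustains naive T cells and innate lymphoid cells. It was at 248 CPM in ILC1-like and 16.2 CPM in conventional NK cells of the female library, a ratio of 15.4 (9.61 to 26.2). In the male library it was at 204 CPM in ILC1-like cells with no UMI in conventional NK cells, which makes it at least 30.7-fold higher when 3 counts are taken as the floor. After drawing 1000 UMIs per cell, Il7r was detected in 19.9% of female and 16.2% of male ILC1-like cells, in 0.741% of female conventional NK cells and in 0 of 108 male ones, which allows a share with a UMI of up to 2.78% at this depth, taking 3 cells as the limit for a count of 0. Without drawing, the shares in ILC1-like cells were 38.5% and 39.6%. The B cells had it in 0.718% (female) and 0% (male, which allows up to 1.49%) of thinned cells, at median depths of 2162 and 1742.5 UMIs before drawing. T cells were higher still, at 654 and 428 CPM.

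Cxcr6 was at 155 against 6.29 CPM in the female library, a ratio of 24.7 (11.8 to 61.9), and at 179 against 11.0 CPM in the male library, a ratio of 16.2 (6.80 to 50.6). It was found in 14.6% and 18.2% of thinned ILC1-like cells, 0.741% and 0.926% of conventional NK cells and 0.478% and 0.995% of B cells. Unthinned, 38.2% and 48.7% of ILC1-like cells had a UMI. The 5 cells with the most UMIs held 13.4% and 18.8% of the total, so the signal was spread over many cells.

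Tmem176b and Tmem176a, neighbouring genes for membrane proteins, were high together. Tmem176b stood at 191 against 11.7 CPM in the female library, a ratio of 16.3 (9.44 to 31.0), and at 284 CPM in male ILC1-like cells against 6.63 CPM (3 UMIs) in conventional NK cells, a ratio of 42.9 (14.5 to 209). Tmem176a stood at 132 against 7.19 CPM in females, a ratio of 18.3 (9.16 to 42.9), and at 179 against 4.42 CPM (2 UMIs) in males, a ratio of 40.5 (11.0 to 337). The genes lie on opposite strands of chromosome 6, Tmem176b at chr6:48833818-48841496 and Tmem176a at chr6:48840919-48847071, and overlap by 578 bases at their starts; the 250-base windows before their RefSeq starts share 108 bases. Macrophages had more of both, with 803 and 801 CPM of Tmem176b. Beside these values, 14 macrophage and monocyte markers summed to 552 and 352 CPM in ILC1-like cells, to 774 and 347 CPM in conventional NK cells and to 60415 and 45490 CPM in macrophages. C1qa, limited by the gate, was at 27.2 and 28.0 CPM in ILC1-like and at 27.9 and 30.9 CPM in conventional NK cells.

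A further group of leading genes has varied roles. Inpp4b, a phosphoinositide phosphatase, was at 182 against 24.2 CPM in females, a ratio of 7.52 (5.08 to 11.6), and at 223 against 28.7 CPM in males, a ratio of 7.75 (4.43 to 14.8). Cd200r1, an inhibitory receptor, was at 58.6 against 5.39 CPM in females and at 62.7 against 2.21 CPM (1 UMI) in males, with ratios of 10.9 (4.84 to 30.3) and 28.4 (4.89 to 1140). Tnfsf10, which encodes the death ligand TRAIL, was at 122 against 26.0 CPM and 115 against 24.3 CPM, ratios of 4.67 (3.16 to 7.13) and 4.74 (2.54 to 9.79). All 3 were higher in ILC1-like cells in both libraries, with intervals above 2. St6galnac3, a sialyltransferase, and Ramp1, a subunit of the receptor for calcitonin gene-related peptide, had ratios of 13.1 (5.43 to 41.0) and 5.00 (2.74 to 9.99) in the female library. In males St6galnac3 rested on 1 UMI in conventional NK cells (ratio 25.3, 4.34 to 1020) and Ramp1 had a ratio of 4.41 (2.02 to 11.4).

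Gm36723 and Tcrg-C4 had lower levels in T cells, B cells and macrophages than in ILC1-like cells. Gm36723, a long noncoding RNA gene at chr12:25303940-25471979 on the plus strand (GENCODE annotation of GRCm38), was at 483 against 72.8 CPM in females, a ratio of 6.64 (5.28 to 8.44), and at 514 against 64.1 CPM in males, a ratio of 8.01 (5.50 to 12.1). T cells had 18.3 and 30.6 CPM, B cells 9.33 and 9.51 CPM and macrophages 1.38 and 0.721 CPM. It was seen in 34.3% and 33.1% of thinned ILC1-like cells against 4.44% and 4.63% of conventional NK cells. Tcrg-C4, a constant segment of the T cell receptor gamma locus, was at 147 against 11.7 CPM in females, a ratio of 12.6 (7.22 to 23.9), and in males at 167 CPM with no UMI in conventional NK cells, at least 25.1-fold higher. T cells had 53.9 and 73.7 CPM of Tcrg-C4. Gamma constant segments resemble each other, so reads could have been split between copies.

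**Figure D2:**
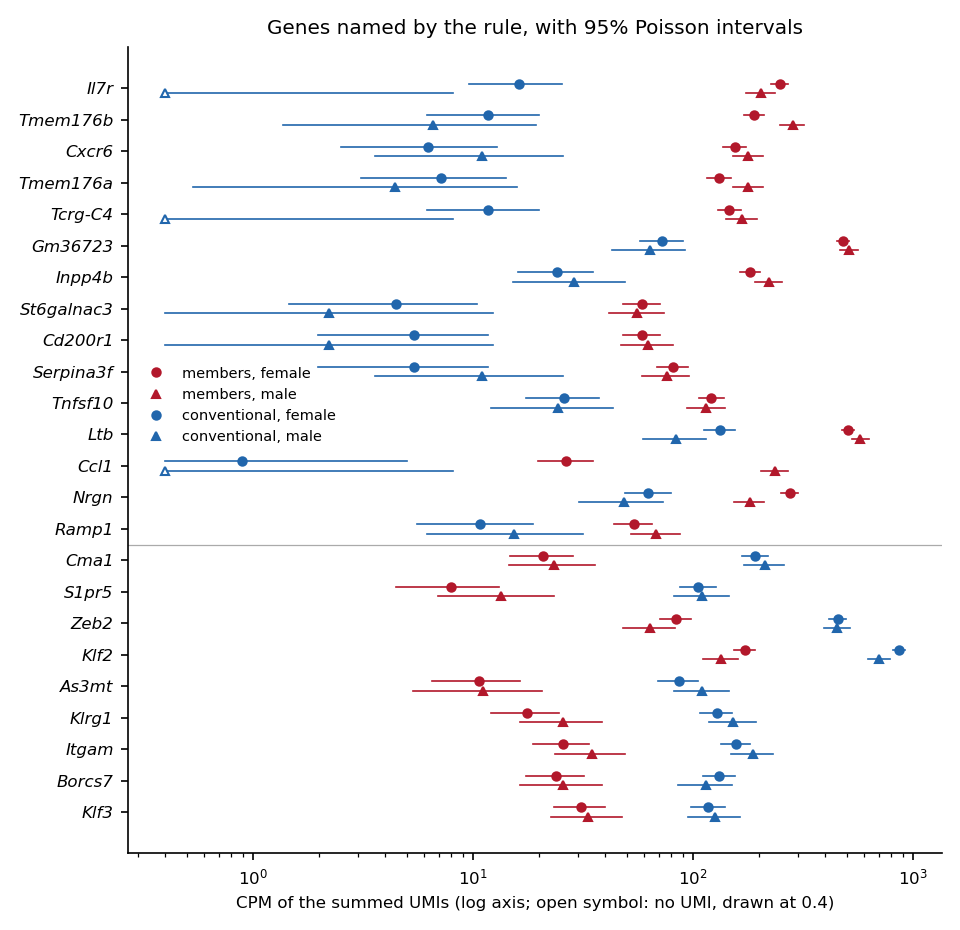
Level in CPM of the 15 highest and 9 of the 10 lowest genes outside the rule in ILC1-like cells (members, red) and conventional NK cells (blue) of the female (circles) and male (triangles) library, on a log axis with 95% Poisson intervals. In all 24 genes the red symbols of both libraries lie on one side of the blue ones; Ccl1 in the female library is at 26.7 CPM and in the male library at 236 CPM.

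The leading lower genes included genes of circulation and maturation. Klf2 was at 172 against 866 CPM in females, a ratio of 0.199 (0.175 to 0.226), and at 134 against 703 CPM in males, a ratio of 0.191 (0.154 to 0.236). S1pr5, the sphingosine 1-phosphate receptor by which NK cells leave bone marrow and lymph nodes, was at 8.0 against 106 CPM and at 13.4 against 110 CPM, ratios of 0.0754 (0.0409 to 0.13) and 0.122 (0.0589 to 0.231). Zeb2, a transcription factor of terminal NK maturation, was at 83.7 against 455 CPM and at 63.8 against 453 CPM. In each of these 3 genes the intervals of the ratio lay below 0.5 in both libraries.

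Maturation markers on the cell surface were also lower in ILC1-like cells. Klrg1 was at 17.6 against 128 CPM in females and 25.7 against 153 CPM in males, and Itgam, which encodes CD11b, at 25.6 against 157 CPM and 34.7 against 188 CPM. Cma1, a mast cell chymase gene, led the lower genes outside the rule on the log2(CPM + 10) scale in the library nearer to 0, at 20.8 against 192 CPM and 23.5 against 212 CPM, with ratios of 0.108 (0.0748 to 0.153) and 0.111 (0.0656 to 0.179). As3mt, an arsenic methyltransferase, and Borcs7, a subunit of a lysosome-positioning complex, had ratios of 0.124 and 0.182 in females and 0.101 and 0.224 in males. Klf3, a repressor of the same family as Klf2, had ratios of 0.263 and 0.267.

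Across 3979 genes with at least 50 UMIs over both sets in each library, the median log2 ratio was -0.04 in the female and -0.01 in the male library. The plot of one library against the other shows called genes at both ends of a cloud around 0. Genes past 2-fold in opposite directions numbered 4 (0.101%), all of them haemoglobin genes.

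**Figure D3:**
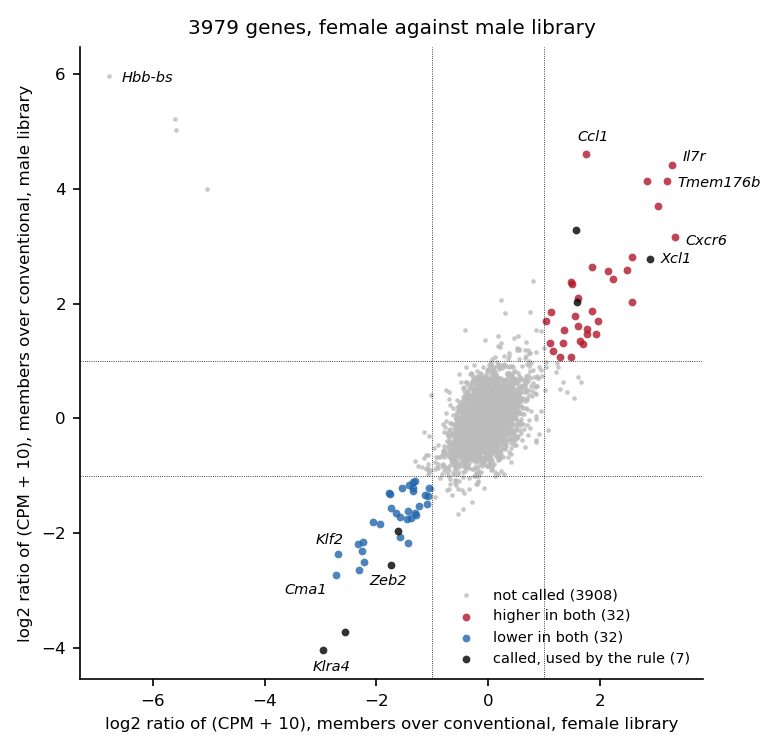
Each point is 1 of 3979 genes, placed by its log2 ratio of (CPM + 10) in ILC1-like (members) over conventional NK cells in the female (horizontal) and male (vertical) library; dotted lines mark 2-fold. The 32 higher and 32 lower genes outside the rule and the 7 called genes that the rule used are coloured, and 4 haemoglobin genes lie at the upper left, near -6.79 and 5.98 for Hbb-bs.

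In a list of 20 ILC1 and residency genes, 16 were compared, 11 were higher (Itga1, of the rule, among them) and 0 lower, where 0.88% of all 3979 genes were higher and 0.905% lower. The medians of the list were 1.61 and 2.13 on the log2 scale in the female and male library, against -0.04 and -0.01 over all genes. Besides genes already named, Ahr, the aryl hydrocarbon receptor, was at 80.5 against 18.9 CPM and 60.4 against 17.7 CPM, Ikzf2, which encodes Helios, at 67.2 against 16.2 CPM and 70.5 against 13.3 CPM, and Ckb, creatine kinase B, at 93.8 against 26.9 CPM and 88.4 against 8.84 CPM. Cd69, an early activation and retention marker, did not pass 2-fold in both libraries, at 113 against 98.8 CPM in females and at 79.4 against 137 CPM in males. Prdm1 and Zfp683, which encode Blimp-1 and Hobit, were too low to be compared. Prdm1 was at 18.1 against 34.1 CPM and 22.4 against 53.0 CPM. Zfp683 had 19 and 16 UMIs in ILC1-like cells and 5 and 0 in conventional NK cells. Of 20 genes of conventional NK cells and circulation, 18 were compared, 0 were higher and 15 lower, 4 of them genes of the rule, with medians of -1.84 and -2.05, beside 0.905% lower over all genes. Both lists were chosen with earlier results of these cells known, and the rule used the same contrast, so nothing is read from these counts.

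The Ly49 receptors are inhibitory or activating lectins, most of them for MHC class I. Of 11 genes 6 were compared and 5 were lower, 2 of which (Klra4 and Klra8) the rule had used, beside 0.905% lower over all 3979 genes. Klra3 was at 149 against 453 CPM in females and 132 against 320 CPM in males, Klra7 at 266 against 672 CPM and 208 against 672 CPM, and Klra9 at 260 against 551 CPM and 325 against 769 CPM. Members of this family are similar in sequence, and the assignment of reads among them is uncertain. The NKG2 and NKR-P1 receptors differed in both directions: of 11 compared genes Klrc1 and Klrb1b were higher and Klrg1 was lower, where 0.88% of all genes were higher and 0.905% lower. Klrb1b, which encodes an inhibitory NKR-P1 receptor, was at 340 against 97.9 CPM in females, a ratio of 3.47 (2.83 to 4.29), and 363 against 141 CPM in males, a ratio of 2.56 (1.95 to 3.41). Klrk1, which encodes the activating receptor NKG2D, was at 1055 against 1216 CPM and 1045 against 1379 CPM.

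Other receptors and adaptors (14 compared, 3 higher and 0 lower, with 0.88% and 0.905% over all genes) included Cd226 and Cd7 outside the rule. Cd226, the activating receptor DNAM-1, was at 318 against 86.2 CPM in females, a ratio of 3.69 (2.97 to 4.63), and 379 against 130 CPM in males, a ratio of 2.91 (2.20 to 3.90). Cd7, a surface protein of early lymphocytes, was at 1180 against 543 CPM and 1055 against 418 CPM. Of the signalling adaptors of activating NK receptors, Fcer1g and Tyrobp were not called. Fcer1g was at 2549 against 3089 CPM and 2308 against 2941 CPM, and Tyrobp at 2413 against 3702 CPM and 2238 against 3936 CPM. Cd247, another such adaptor outside this list, was lower, at -1.44 in the female and -1.62 in the male library on the log2 scale.

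Cytotoxic genes differed within the family. Of 15 compared, Gzma and Prf1 were lower and Tnfsf10 was higher, beside 0.905% lower and 0.88% higher over all genes, and the medians of the list were -0.12 and -0.36 on the log2 scale. Gzma, granzyme A, was at 4486 against 11050 CPM in the female library, a ratio of 0.406 (0.395 to 0.417), and 3067 against 9922 CPM in the male library, a ratio of 0.309 (0.295 to 0.324). Prf1, the pore-forming protein perforin, was at 248 against 855 CPM, a ratio of 0.29 (0.26 to 0.325), and 337 against 1010 CPM, a ratio of 0.334 (0.287 to 0.387). After drawing 1000 UMIs, Gzma was present in 51.7% of female and 39.6% of male ILC1-like cells, against 90.4% and 95.4% of conventional NK cells and 5.02% and 1.99% of B cells. Srgn, the proteoglycan that packs granules, was higher without reaching 2-fold, at 1009 against 622 CPM and 1047 against 535 CPM.

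Among 10 compared cytokines and chemokines Xcl1, which the rule had used, Ltb and Ccl1 were higher and 0 were lower, against 0.88% higher and 0.905% lower over all genes. Ltb, lymphotoxin beta, a builder of lymphoid tissue, was at 510 against 133 CPM in females, a ratio of 3.83 (3.22 to 4.59), and 579 against 84.0 CPM in males, a ratio of 6.89 (4.95 to 9.85). Ccl1 rested on few cells: 13 female and 6 male ILC1-like cells had a UMI, and 5 cells held 70.0% and 99.5% of the UMIs. Ifng, the cytokine shared by ILC1 and NK cells, was at 93.8 against 79.05 CPM in females, a ratio of 1.19 (0.914 to 1.55), and at 99.6 against 166 CPM in males, a ratio of 0.601 (0.437 to 0.828). Ccl5 was the most abundant of the group, at 9476 against 14988 CPM and 7993 against 13288 CPM. Ccl4 was at 1356 against 1153 CPM and 2095 against 1920 CPM.

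Of 12 compared cytokine receptors only Il7r was called, as higher, which 0.88% of all genes were; 0.905% were lower. Il2ra, the high-affinity chain for interleukin-2, did not have 50 UMIs in the male library and was not compared; it had 66 UMIs in female ILC1-like cells against 1 in conventional NK cells (ratio 39.2, 6.79 to 1570) and 30 against 0 in the male library, at least 5.06-fold higher. Il18r1 was at 130 against 195 CPM and 141 against 239 CPM. Adhesion and trafficking genes (17 compared) had 2 higher, Cxcr6 and, from the rule, Itga1, and 5 lower. Itga4, an integrin chain for endothelial VCAM-1, was among the lower ones, at 150 against 530 CPM in females and 247 against 630 CPM in males. Cxcr3 differed between libraries in size, at 133 against 35.0 CPM in females, a ratio of 3.79 (2.70 to 5.46), and at 178 against 110 CPM in males, a ratio of 1.61 (1.16 to 2.26).

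Transcription factors (20 compared) gave 2 higher, Ahr and Ikzf2, and 3 lower, Klf2, Zeb2 and Eomes, the last a gene of the rule. Over all genes 0.88% were higher and 0.905% lower. Id2, required by all innate lymphoid cells, was at 1655 against 1569 CPM and 1951 against 1576 CPM, and Runx3 at 314 against 306 CPM and 300 against 347 CPM. Rora was below the count minimum in the male library, with 60 against 3 UMIs in females (ratio 11.9, 3.87 to 59.2) and 45 against 2 in males (ratio 11.4, 2.98 to 97.0). Of 22 compared immediate early and stress genes 0 were higher and 0 lower in both libraries, which is near those shares over all genes. Their medians were -0.12 and -0.26, against -0.04 and -0.01 over all genes compared.

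ILC1-like cells were not alike. They were divided by whether an Itga1 UMI was present and whether the second sum was 0, both features of the rule. The division gave 90 female and 46 male cells with Itga1 and a second sum of 0, 108 and 49 without Itga1 and with a sum of 0, 68 and 19 with Itga1 and a sum above 0, and 98 and 40 without Itga1 and with a sum above 0. Their median depths were 4579, 4307, 5868.5 and 4485.5 UMIs in the female library and 5501, 5320, 5548 and 5405 UMIs in the male library.

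Levels in these classes are a description, since the features that cut them belong to the rule and the genes shown were called in its contrast. In the order just given Cxcr6 was at 288, 206, 101 and 36.8 CPM in the female library and 315, 177, 125 and 58.5 CPM in the male library, each above the 6.29 and 11.0 CPM of conventional NK cells. The Poisson intervals, which cover counting error only, were 240.3 to 343 and 250.9 to 389 in the first class. In the last they were 21.8 to 58.2 and 32.0 to 98.1. Il7r was at 350, 454, 84.1 and 108 CPM in females and 202, 316, 227 and 71.0 CPM in males. At a second sum of 0 it was thus no lower in cells without Itga1 than in cells with it. Tmem176b was higher where the second sum was 0, at 249.5, 378, 60.4 and 75.7 CPM in females and 427, 343, 125 and 146 CPM in males. Inpp4b was lowest in the class without Itga1 and with a sum above 0, at 222, 220, 192 and 100.2 CPM and 277, 293, 250.4 and 71.0 CPM.

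Klf2, Zeb2 and Prf1 were highest in that class in both libraries. Klf2 was at 50.4, 144, 88.4 and 389 CPM in the female and 52.4, 146, 39.1 and 263 CPM in the male library. Zeb2 was at 75.5, 61.7, 49.6 and 145 CPM and at 30.0, 23.1, 31.3 and 163 CPM. Prf1 was at 103, 187, 110 and 571 CPM and at 127, 193, 250.4 and 773 CPM. For these 3 genes the class without Itga1 and with a second sum above 0 stood between the other ILC1-like cells and conventional NK cells, which is a description, since the features that cut the classes also set ILC1-like apart from conventional NK cells. Gzma was higher in both classes with a second sum above 0, at 2832, 2210, 6875 and 5964 CPM and 1330, 1399, 5251 and 5646 CPM.

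**Figure D4:**
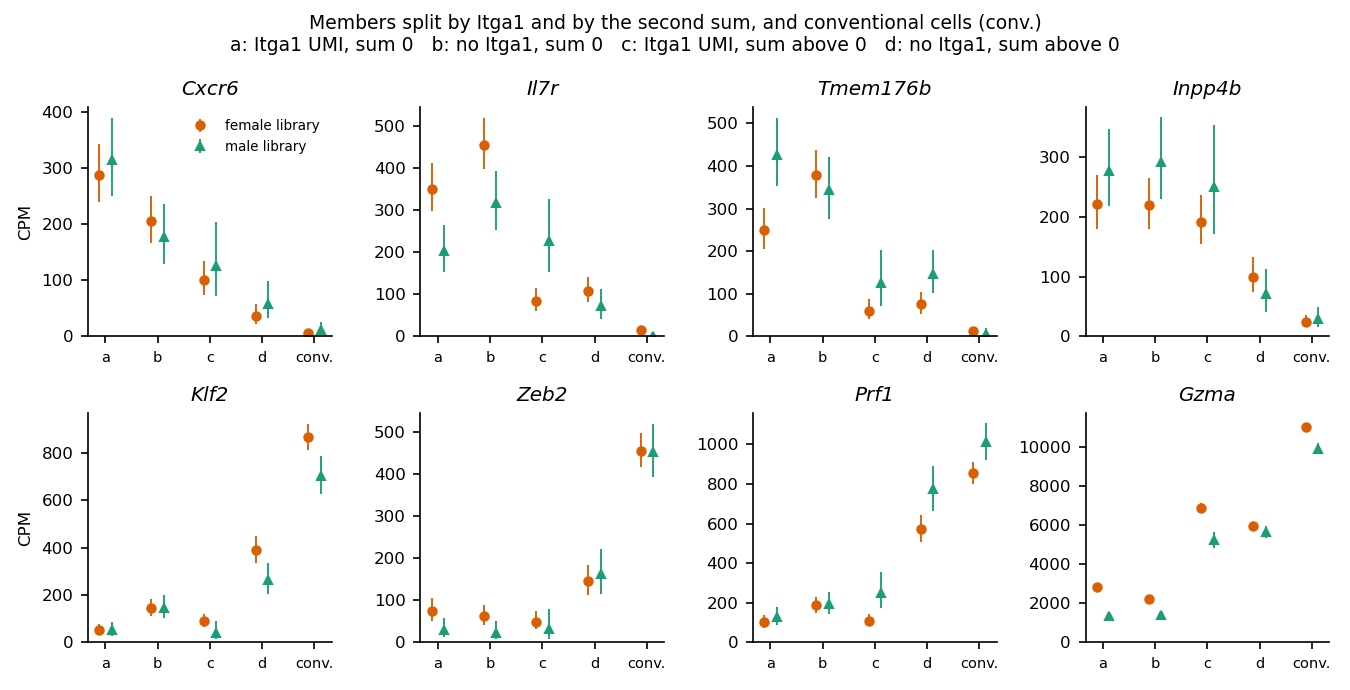
Level in CPM of 8 genes in the 4 classes of ILC1-like cells (a, Itga1 UMI and second sum 0; b, no Itga1 and second sum 0; c, Itga1 UMI and second sum above 0; d, no Itga1 and second sum above 0) and in conventional NK cells (conv.), female library as circles and male as triangles, with 95% Poisson intervals. Cxcr6 falls from 288 and 315 CPM in class a to 36.8 and 58.5 CPM in class d, while Prf1 is at 571 and 773 CPM in class d.

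The same division was read cell by cell, with 1000 UMIs drawn from each, for 6 residency genes outside the rule (Cxcr6, Il7r, Tmem176a, Tmem176b, Inpp4b and Cd200r1) and 6 circulation genes (Cma1, S1pr5, Zeb2, Klf2, Klrg1 and Itgam), chosen among the called genes. That choice fixes the direction between ILC1-like and conventional NK cells, and the classes were cut on features of the rule, so the shares of the 2 sets and of the classes are a description. Cells with UMIs of the first group only were 46.4% (168 of 362; 41.2 to 51.7) of female and 54.5% (84 of 154; 46.3 to 62.6) of male ILC1-like cells and 1.85% of both female and male conventional NK cells. Cells with UMIs of the second group only were 16.6% and 16.2% of ILC1-like cells and 68.1% and 72.2% of conventional NK cells. UMIs of both groups in 1 cell were seen in 5.80% and 6.49% of ILC1-like cells, and none of the 12 genes in 31.2% and 22.7%. In the class without Itga1 and with a second sum above 0, cells with the circulation group only were 41.8% (31.9 to 52.2) and 40% (24.9 to 56.7), against 8.82% or less in females and 14.3% or less in males in the other classes. Among B cells 3.35% and 1.49% held the first group only. Neither group was particular to these sets: the circulation group alone was found in 57.7% and 56.7% of B cells, and the residency group was found without the circulation group in 36.6% and 42.5% of T cells and in 34.1% and 34.3% of macrophages.

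**Figure D5:**
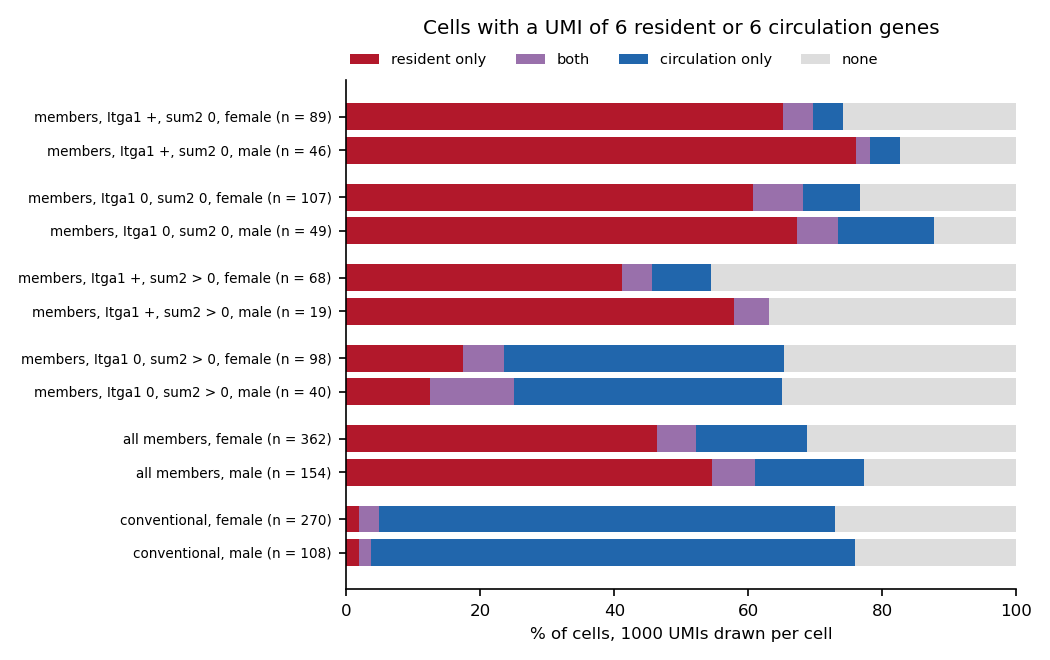
Share of cells, in percent after drawing 1000 UMIs per cell, with UMIs of 6 residency genes only (red), 6 circulation genes only (blue), both (purple) or none (grey), for the 4 classes of ILC1-like cells (members; sum2 is the second sum), all ILC1-like cells and conventional NK cells of each library. The genes were chosen for their difference between ILC1-like and conventional NK cells; within ILC1-like cells the circulation-only share is 41.8% and 40% in the class without Itga1 and with a second sum above 0.

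Female and male ILC1-like cells were then set side by side. Of 6063 genes with at least 50 UMIs over both libraries, 17 (0.28%) were 2-fold higher and 13 (0.214%) 2-fold lower in female cells. Of 17 residency genes compared, Itga1 of the rule among them, 0 were higher and 0 lower, which is near these shares over all genes. Their median was -0.17 on the log2 scale, against -0.07 over all genes. Female over male ratios were 0.867 (0.712 to 1.06) for Cxcr6, 1.22 (1.03 to 1.46) for Il7r, 0.882 (0.738 to 1.06) for Itga1 and 0.862 (0.824 to 0.901) for Xcl1. Klra8, a gene of the rule, was 2-fold higher in female ILC1-like cells, at 173 against 80.6 CPM, and Ly6c2 2-fold lower, at 215 against 496 CPM.

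Gzmc, granzyme C, was at 196 CPM in female and 48.1 CPM in male ILC1-like cells, a ratio of 4.08 (2.97 to 5.73), and at 4.49 and 2.21 CPM in conventional NK cells. It was detected in 59 female and 11 male ILC1-like cells, and 5 cells held 41.6% and 86.0% of its UMIs. With the rule applied to 1000 drawn UMIs the direction reversed, to -0.46 on the log2 scale. It resembles other granzyme genes in sequence. The other 4 highest genes in female cells, Cd209d, Lyz1, Fn1 and Lyz2, are genes of myeloid cells, and 5 female cells held 100%, 95.1%, 82.9% and 62.3% of their UMIs. Without any C1q UMI in the gate, Lyz2 stood at -0.01 (log2, female over male). MHC class II genes, also high in myeloid cells, summed to 789 CPM in female and 375 CPM in male ILC1-like cells, and macrophages had 34665 and 53017 CPM. Whether RNA of other cells accounts for these female values was not tested; with barcodes of high doublet score removed 8 genes were 2-fold higher in place of 17. Lowest in female cells were the haemoglobin genes Hbb-bs, Hba-a1, Hba-a2 and Hbb-bt, and 1 male ILC1-like cell held 1937 of 1943 haemoglobin UMIs. Ccl1 came next, at 26.7 CPM against 236 CPM, a ratio of 0.113 (0.0812 to 0.154), with the few cells given above.

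The adrenal cortex makes glucocorticoids, and 6 of 10 glucocorticoid-responsive genes could be compared. Only Ddit4 passed 2-fold, as 0.28% of all genes did in this direction and 0.214% in the other, at 109 CPM in female and 45.9 CPM in male ILC1-like cells, a ratio of 2.38 (1.70 to 3.42). Fkbp5 was at 126 against 67.1 CPM, a ratio of 1.87 (1.41 to 2.53), and Tsc22d3, which encodes the protein GILZ, at 175 against 106 CPM, a ratio of 1.65 (1.31 to 2.09). The median of the 6 genes was 0.64 on the log2 scale, against -0.07 over all genes. The female value was the higher also in other cells of these libraries: Ddit4 stood at 74.6 against 30.9 CPM in conventional NK cells and at 154 against 61.3 CPM in macrophages. Nr3c1, the glucocorticoid receptor itself, was at 53.3 CPM in female and 83.9 CPM in male ILC1-like cells. Markers of adrenal endocrine cells summed to 17.6 and 13.4 CPM in ILC1-like cells, and Cyp11b2, Th, Dbh, Chga, Chgb and Pnmt had no UMI in either library.

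T cell genes were present in part. Cd3d, Cd3e and Cd3g were limited by the gate. Trbc1 and Trbc2, constant segments of the T cell receptor beta chain, were at 468 and 381 CPM in female and 423 and 455 CPM in male ILC1-like cells, and at 334 and 192 CPM and 407 and 248 CPM in conventional NK cells, whereas Trac, of the alpha chain, was at 25.1 and 15.7 CPM in ILC1-like cells and 668 and 607 CPM in T cells. The 15 T cell markers summed to 1271 and 1336 CPM in ILC1-like cells, 1007 and 1105 CPM in conventional NK cells and 7216 and 7180 CPM in T cells. With no Cd3d, Cd3e or Cd3g UMI allowed, 315 female and 135 male ILC1-like cells were left, and 31 genes were higher, of which 28 had been called before; this alternative was chosen after seeing the data. With no UMI of Cd3d, Cd3e, Cd3g, Trac, Trbc1 or Trbc2 allowed, 27 and 9 ILC1-like cells were left. Then 4 genes were higher, 3 of them called before, among 268 that kept the minimum of UMIs. The rest of the 15 markers were not limited.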

How the data were processed

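Reads of 2 droplet libraries (Chromium 3′ chemistry, version 3.1) were turned into counts by the authors with Cell Ranger 4.0.0 on mm10, and barcodes of noise were removed with DropletUtils 1.4.3. The deposited files hold raw counts of UMIs for 32285 genes, not normalized. The libraries held 16218309 (female) and 9512670 (male) UMIs, and ILC1-like cells 1875867 and 893675.

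Everything else was computed here with Python 3.11.15, numpy 2.4.6, scipy 1.17.1 and pandas 2.3.3. Counts were summed per library and cell set and divided by the set's total, as CPM. Called genes passed 2-fold on log2(CPM + 10), a scale that understates changes of low genes; genes compared had at least 50 UMIs. Shares above 0 carry Clopper-Pearson intervals and shares of 0 the limit of 3 counts; differences carry Newcombe, CPM exact Poisson and ratios exact conditional binomial intervals. Cells were thinned to 1000 UMIs, leaving out 2 female ILC1-like, 4 female and 1 male conventional NK cells. T cells, B cells and macrophages were gated on Cd3, Cd79 and C1q UMIs. Doublets were kept in the main values: the automatic Scrublet threshold in scanpy 1.11.5 marked 1 and 8 barcodes and so had not worked, and an alternative removed 126 and 58 barcodes at a fixed rate. A mitochondrial ceiling of 1.2%, the figure in the study's methods, was another alternative; it kept 327 and 359 barcodes of the deposited files, and whether it is on the scale used here is not known. The code for the 2-fold rule was checked on simulated counts, which is no test of these data.

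Genes named were the 15 highest and 10 lowest outside the rule by the library nearer to 0 (1 of the lowest is not reported here), 5 each way between the sexes (Xist, Tsix and Y-linked genes left out), genes of the rule, label markers and list genes. Members, lists and tests were chosen with earlier results of these data known. Positions are on GRCm38. Tmem176a and Tmem176b overlap on opposite strands, and Itga1, Inpp4b, St6galnac3, Klrb1c, Zeb2, Klf3, Itgam and Ltb overlap other genes on the same strand, so their counts may share or lose reads.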

Additional observations from a re-analysis of the deposited data

Results flagged for a closer look

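Haemoglobin genes were the only genes past 2-fold in opposite directions in the 2 libraries. On the log2(CPM + 10) scale ILC1-like over conventional NK cells stood at -6.79 in the female and 5.98 in the male library for Hbb-bs, -5.60 and 5.22 for Hba-a1, -5.58 and 5.04 for Hba-a2, and -5.04 and 4.00 for Hbb-bt. The difference between the libraries was not tested. In the female library 1 conventional NK cell held 3546 of 3549 haemoglobin UMIs, and in the male library 1 ILC1-like cell held 1937 of 1943. Without cells that had 10 or more haemoglobin UMIs, an alternative chosen after seeing the data, 35 genes were higher and 36 lower in ILC1-like cells, and all of them had been called before.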

How the results depend on the processing

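Female and male cells could not be paired, and no replicate was left out, because each sex has 1 library. ILC1-like and conventional NK cells were compared within each library, and no paired test was run on them. A mitochondrial ceiling of 1.2%, which may not be on the scale of the study's filter, left 10 female and 6 male gate cells with 2 ILC1-like cells each: the shares were 20.0% and 33.3%, a difference of -13.3 points, and 3 genes were higher and 5 lower in ILC1-like cells, 5 higher and 6 lower in female cells. Allowing no UMI of Cd3d, Cd3e, Cd3g, Trac, Trbc1 or Trbc2 left 27 and 9 ILC1-like cells, shares of 24.5% and 27.3%. It gave 4 higher, 13 lower, 9 female-higher and 6 female-lower genes. An Itga1 UMI with a second sum of 0 gave shares of 13.3% and 16.7%; the rule on 1000 UMIs gave 37.0% and 37.6%. Removing likely doublets left 8 genes higher in female cells.

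The minimum of 20 UMIs gave 58 higher genes. With 200 UMIs 14 were higher and 15 lower, and 6 and 5 between female and male cells. No minimum gave 60, 56 and, for female-lower genes, 22. A pseudocount of 1 CPM gave 32 and 40 female-higher and female-lower genes, and one of 50 CPM gave 21, 22, 4 and 8. The cause was not tested.

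Between the sexes, Lyz2 turned to -0.00854 without C1q UMIs and Gzmc to -0.46 with the rule on 1000 UMIs (log2). No named gene turned direction between ILC1-like and conventional NK cells where it kept 50 UMIs; 669 of 674 such values kept their side of 2-fold. Values below the UMI minimum were not computed.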
